A study of Mus musculus with 80 samples.

Results

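The genes described here encode proteins of synaptic vesicles, of the presynaptic release machinery and of the scaffolds and adhesion molecules that hold both sides of a synapse together, in the mouse hippocampus after kainic acid. They were chosen by name. The symbols Syn1, Syn2, Snap25, Snap91, Bsn, Pclo and Syp were taken, with every symbol that begins with Syt, Stx, Vamp, Sv2, Cplx, Rims, Unc13, Dlg, Shank, Homer, Nrxn, Nlgn or Lrrtm. A probe had to be detected (detection p under 0.05) on at least 4 arrays, and the brightest probe stood for a gene. Of 79 symbols of this kind annotated to the 21244 probes used here, 69 had such a probe, among 11381 genes in all. The 10 others, among them the active zone scaffold Bsn, had no kept probe, and Snap25, Sv2c, Unc13a, Shank1, Shank2, Homer2, Homer3 and Lrrtm4, among others, are not analysed here. Because the prefixes are wide, the 69 members also hold Dlgap scaffolds, Stxbp and Sytl genes, and syntaxins and VAMPs that work in membrane traffic of most cells.

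At a synapse, vesicles carry synaptophysin, SV2 proteins, synaptotagmins and VAMPs in their membrane and are held in a reserve by synapsins. A vesicle docks at the active zone, built on piccolo, RIM and Munc13 proteins, and fuses when its VAMP pairs with syntaxin and SNAP-25 on the plasma membrane, a step that complexins clamp and synaptotagmin 1 triggers with calcium. Across the cleft, neurexins bind neuroligins and LRRTM proteins, and PSD-95 (Dlg4), SAPAP (Dlgap), Shank and Homer proteins stack into the scaffold that anchors glutamate receptors.

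The arrays were Illumina mouse expression BeadChips hybridised with hippocampal RNA of 40 male C57Bl/6J mice, which had surgery at 12 weeks of age. KA mice received 50 nl of 20 mM kainic acid, an agonist of kainate-type glutamate receptors, in the right dorsal hippocampus, and sham mice received saline there. The hippocampus of the injected side (IL) and that of the other side (CL) were arrayed separately for each animal, 7, 28 or 60 days later. KA groups had 8, 9 and 9 animals at these days and sham groups had 4, 5 and 5, and the CL side of a KA mouse is a hippocampus without an injection in an animal that was injected on the other side. Markers of hippocampal principal cells were present: 4 of 5 listed for CA1, 6 of 7 for CA2 and CA3 and 2 of 6 for dentate granule cells were tested, and each of those was detected in every group.

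Some arrays stood apart. The share of probes detected on an array averaged 61.3% and ranged from 46.8% to 66.9%. The lowest slide means were 56.8% on slide 4 and 51.4% on slide 9, which together hold 11 arrays, none of them from day 7. On 4 of these 11 arrays single probes lay far below the rest of their group. Of 1046 gene values over 3 log2 units under the group median on all arrays, 294 were on IL sham replicate 5 of day 28 (slide 9), and 253, 250 and 201 on CL KA replicate 3 of day 60, CL KA replicate 4 of day 28 and CL sham replicate 3 of day 28 (slide 4). These 4 arrays also held all 12 such values of the members, and the other 7 arrays of the 2 slides had 0 to 3 gene values each. The members' results are therefore given for all 80 arrays and, where calls differ, also without these 2 slides, an alternative chosen after seeing the data. At day 7, the array of IL KA replicate 8 stood apart in another way. Its mean log2 value over 8 microglia markers was 7.61, against 8.78 to 9.77 on the other 7 IL KA arrays and 7.09 to 7.53 on the 4 IL sham arrays, and day 7 results are also given without it.

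Among the day 7 members that passed the test, the 3 with a single start in RefSeq's promoter table are shown here so that the windows of a pair that was lower and of 1 that was higher can be compared. Each window runs from 250 bases before to 50 bases after the annotated start (GRCm38.p6), 5′ to 3′ on the gene's strand. Capitals mark GC boxes, the letters GGGCGG on either strand. Snap91 lies at chr9:86880659-86880958 on the minus strand, Pclo at chr5:14514668-14514967 on the plus strand and Vamp8 at chr6:72390618-72390917 on the minus strand.

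Snap91: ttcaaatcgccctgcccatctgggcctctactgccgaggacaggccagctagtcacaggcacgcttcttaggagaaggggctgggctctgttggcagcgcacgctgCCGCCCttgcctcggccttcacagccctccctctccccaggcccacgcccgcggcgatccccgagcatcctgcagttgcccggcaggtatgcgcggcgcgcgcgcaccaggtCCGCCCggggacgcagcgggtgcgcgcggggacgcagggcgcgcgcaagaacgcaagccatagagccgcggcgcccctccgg

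Pclo: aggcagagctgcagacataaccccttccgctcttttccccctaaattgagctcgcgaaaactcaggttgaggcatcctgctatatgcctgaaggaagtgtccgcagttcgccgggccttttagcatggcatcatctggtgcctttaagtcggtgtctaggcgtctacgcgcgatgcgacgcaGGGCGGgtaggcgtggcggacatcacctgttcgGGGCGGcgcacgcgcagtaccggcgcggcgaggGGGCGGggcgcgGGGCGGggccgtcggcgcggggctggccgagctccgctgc

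Vamp8: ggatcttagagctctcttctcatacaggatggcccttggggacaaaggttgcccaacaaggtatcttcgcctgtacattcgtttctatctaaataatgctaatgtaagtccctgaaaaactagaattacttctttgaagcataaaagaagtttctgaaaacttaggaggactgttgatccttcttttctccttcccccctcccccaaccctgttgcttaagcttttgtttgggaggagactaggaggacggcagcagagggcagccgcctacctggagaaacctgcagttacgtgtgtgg

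The Snap91 window has 2 GC boxes and is 72.0% G and C, the Pclo window has 4 and is 66.0%, and the Vamp8 window has none and is 46.7%. Vamp3, the other member called higher, had no listed promoter, so Vamp8 gives the only window of a higher member. These windows therefore cannot show whether lower and higher members differ in them. Dlg4 and Dlgap1, also called lower, have several listed starts. At the first listed start neither has a GC box, and G and C make up 46.3% for Dlg4 and 57.7% for Dlgap1. Of the 69 members, 55 had a promoter in the table, and 34 of these (61.8%) hold a GC box, against 35.7% of all 32851 promoters. In these shares and medians a member counts once, at its first listed start. All promoters hold every listed start of a gene, so the sets are unlike. The median G and C content was 59.7% over the members' promoters and 52.7% over all. The letters TATAAA were in 2 of the members' promoters (3.64%) and in 13.6% of all, and the letters TGACG, the core of a cyclic AMP response element, in 14 (25.5%) and in 20.8%. The full element TGACGTCA, which contains TGACG on both strands, was in 1 (1.82%) and in 1.79%. Both strands were searched for each motif. A match describes letters in a window and was not tested as a binding site.

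The comparison of KA with sham mice on the injected side at day 7 asked which transcripts differed in the hippocampus that had received kainate a week before. Of the 69 members, 4 were lower in KA mice: Dlg4, Snap91, Dlgap1 and Pclo. Another 2, Vamp3 and Vamp8, were higher. The test was limma's moderated test with Benjamini-Hochberg adjustment over all 11381 genes and a threshold of 0.05, and a gene past it is here said to be called. Over all genes 10.5% were called, 7.45% higher and 3.03% lower. The members' share called was 8.70%, with 5.80% lower. In whole tissue, fewer cells of a type and less RNA per cell cannot be told apart.

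Below 0 lay 60 of the 69 differences (87.0%), against 57.5% of all genes, and their median was -0.17, against -0.04 for all genes. This count is a description of members that were chosen by name. It ranged from 55 to 60 when single arrays were left out. With no background correction it was 55 of 69, and with array weights 57. The median of all genes moved to -0.10 with median scaling, where the members' median was -0.25 and 60 lay below 0.

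Dlg4 encodes PSD-95, the main scaffold of excitatory postsynapses. Its log2 values had a lowest of 6.50, a median of 6.97 and a highest of 7.32 on the 8 IL KA arrays, against 7.63, 7.85, 7.95 and 7.75 on the 4 IL sham arrays. The groups did not overlap. The difference was -0.87 ± 0.20 (SE; 95% interval -1.26 to -0.48; adjusted p = 0.000766, limma), or 1.83-fold lower in KA mice.

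Dlgap1, the SAPAP protein that joins PSD-95 to Shank, was near the detection limit and was detected on 6 of the 8 IL KA arrays and on 4 of the 4 IL sham arrays. Its values ran from 4.63 over a median of 5.44 to 5.63 in KA mice, against 6.12, 5.69, 6.12 and 6.17 in sham mice. Every KA array lay below every sham array, by -0.72 ± 0.23 (SE; adjusted p = 0.0282, limma). This call was lost without IL sham replicate 1, 3 or 4 or IL KA replicate 3 or 7, with adjusted p from 0.0514 to 0.0977 and differences from -0.69 to -0.62.

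Snap91 encodes AP180, which assembles clathrin coats when vesicle membrane is retrieved. The lowest value was 6.62, the median 6.84 and the highest 7.58 in IL KA mice, against 7.94, 7.72, 7.91 and 7.60 in IL sham mice. The groups did not overlap, and the highest KA array lay just below the lowest sham array. Its difference was -0.86 ± 0.19 (SE; adjusted p = 0.000868, limma), 1.82-fold lower in KA mice. A second, dimmer Snap91 probe differed by -0.33 ± 0.35 (SE; adjusted p = 0.687, limma). For this and other second probes the p comes from a fit to all 16646 kept probes and is adjusted over those.

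Pclo encodes piccolo, a very large scaffold of the active zone. In IL KA mice it had a lowest of 6.43, a median of 6.71 and a highest of 7.43, against 7.47, 7.43, 7.46 and 7.51 in IL sham mice. The KA values were spread over a range that ended at the lowest sham value, while the 4 sham values lay close together. The difference was -0.67 ± 0.22 (SE; adjusted p = 0.0422, limma), and a second Pclo probe differed by -0.86 ± 0.20 (SE; adjusted p = 0.00122, limma). On the first probe the call was lost with no background correction, median scaling, no detection filter or the replicate block, without any 1 of the 4 IL sham arrays, and without IL KA replicate 1, 3, 4, 6 or 7, with adjusted p from 0.0513 to 0.104.

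Vamp8, or endobrevin, works in late endosomal fusion and in the secretion of many cells outside neurons. It had a lowest of 7.76, a median of 8.89 and a highest of 9.48 on IL KA arrays, against 8.08, 8.33, 7.76 and 7.87 on IL sham arrays. Of the 8 KA arrays 7 lay above every sham array, and the exception was replicate 8. The difference was +0.82 ± 0.22 (SE; adjusted p = 0.00499, limma), 1.77-fold higher in KA mice. A dimmer second probe gave +0.52 ± 0.28 (SE; adjusted p = 0.295, limma).

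Vamp3, or cellubrevin, is a VAMP of recycling endosomes found in most cell types. Its values were 10.09 at the lowest, 10.45 at the median and 10.73 at the highest in IL KA mice, against 9.71, 9.74, 9.97 and 9.86 in IL sham mice. All 8 KA arrays lay above all sham arrays. The difference was +0.64 ± 0.22 (SE; adjusted p = 0.0419, limma), and a second probe gave +0.14 ± 0.18 (SE; adjusted p = 0.772, limma). This call was lost without any 1 of the 4 IL sham arrays, and without IL KA replicate 1, 2, 3, 6 or 7, with adjusted p from 0.0504 to 0.123. It was also lost with the mean of the kept probes (+0.39, adjusted p = 0.0722), with median scaling (adjusted p = 0.266), and with no background correction, no detection filter or the replicate block (0.052, 0.0506 and 0.0851, limma).

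**Figure D1:**
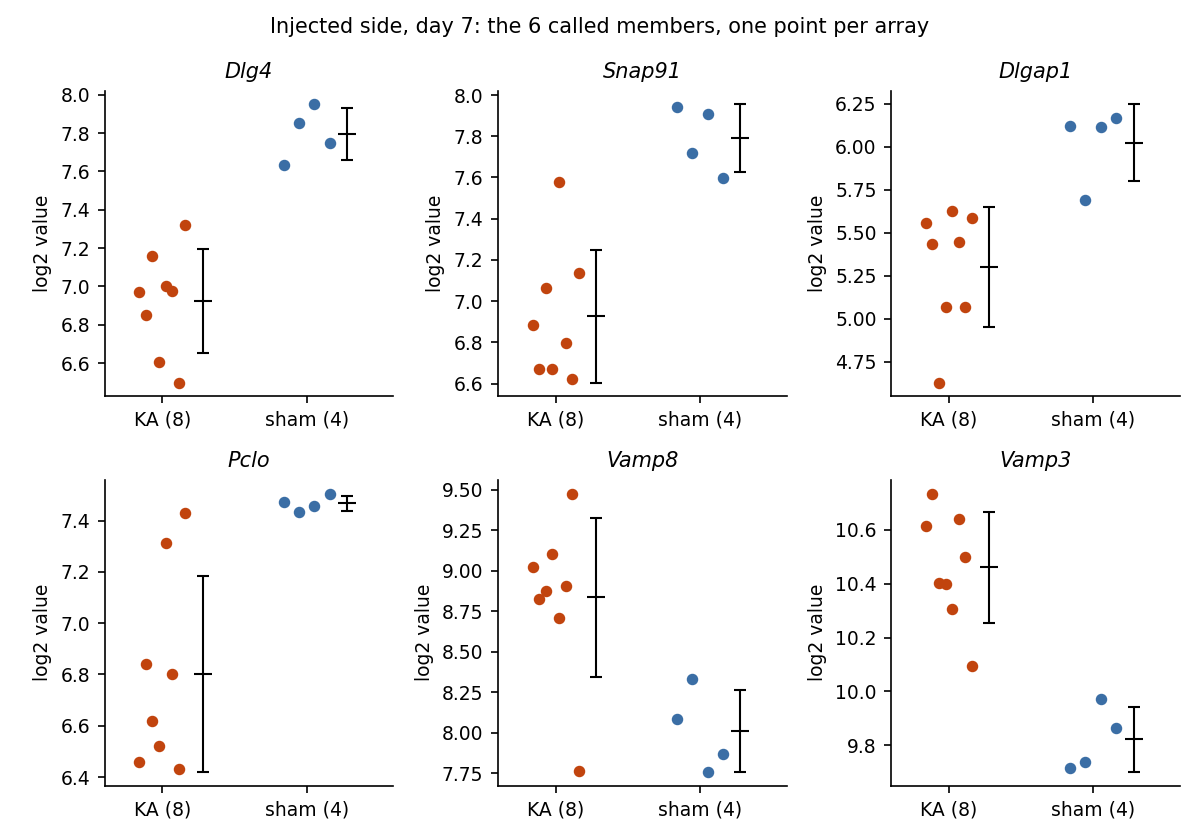
Log2 normalised intensity (vertical axis) of the 6 members called on the injected side at day 7, one point per array for 8 KA and 4 sham mice. Dlg4, Dlgap1, Snap91 and Pclo lay lower on every KA array than on any sham array, Vamp3 lay higher, and Vamp8 lay higher on 7 of 8 KA arrays.

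Groups that did not overlap were seen for 6 members, of which Vamp3 was higher and Dlg4, Snap91, Dlgap1, Pclo and Syt1 were lower. Over all genes, every KA array lay above every sham array for 2.65% and below for 2.62%. The slide on which an array lay did not turn the direction of the 6 called members. Within slides 1, 6 and 10, which held both groups, Dlg4 differed by -0.66, -1.14 and -0.94 and Snap91 by -1.06, -0.79 and -0.84. Within the same slides Dlgap1 differed by -0.56, -0.77 and -0.36 and Pclo by -1.02, -0.54 and -0.50. Vamp3 differed there by +0.90, +0.38 and +0.56 and Vamp8 by +0.94, +1.15 and +0.29. These values come from 1 or 2 KA arrays against 1 sham array per slide and were not tested.

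Without IL KA replicate 8, 8 members were called, 2 higher and 6 lower, against 13.1% of all genes. The additional members were Rims1 (-0.68, adjusted p = 0.0335, limma) and Cplx1 (-0.23, adjusted p = 0.0407, limma). The differences of the first 6 were then -0.93 for Dlg4, -0.89 for Snap91, -0.76 for Pclo, -0.76 for Dlgap1, +0.69 for Vamp3 and +0.98 for Vamp8. The members' median was -0.20 and that of all genes -0.05.

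Without slides 4 and 9, 13 members were called at day 7 on the injected side, 2 higher and 11 lower. All arrays of day 7 remain in this fit, so the differences are the same and only the spread that all groups share was smaller. The share of all genes called was 19.5%, with 10.4% higher and 9.03% lower. The 6 members of the fit to all arrays kept their calls, and 7 vesicle and release genes were added. They were Syt1 (adjusted p = 0.000224, limma), Syp (0.00309), Sv2b (0.00595), Rims1 (0.0152), Cplx1 (0.0187), Vamp2 (0.0348) and Syn2 (0.0395).

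Among these, Syt1 encodes synaptotagmin 1, the calcium sensor of fast release. Its values on IL KA arrays were 11.41 at the lowest, 11.95 at the median and 12.25 at the highest, against 12.56, 12.44, 12.54 and 12.33 on IL sham arrays, a difference of -0.54. The adjusted p over all 80 arrays was 0.619 (limma), and 2 of the 12 values that lay over 3 log2 units under their group were Syt1 values on slide 4. Rims1, the active zone RIM protein, had 5.45, 5.84 and 6.33 as lowest, median and highest in IL KA mice, against 6.54, 6.06, 6.67 and 6.69 in IL sham mice. The groups overlapped at 1 sham array, and the difference was -0.62 ± 0.23 (SE; adjusted p = 0.0659 over all arrays, limma). Syp, or synaptophysin, the vesicle protein used as a general synapse marker, had 13.71, 13.93 and 14.03 in IL KA mice, against 14.10, 14.03, 14.22 and 14.14 in IL sham mice. It differed by -0.22 ± 0.09 (SE; adjusted p = 0.144 over all arrays, limma).

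**Figure D2:**
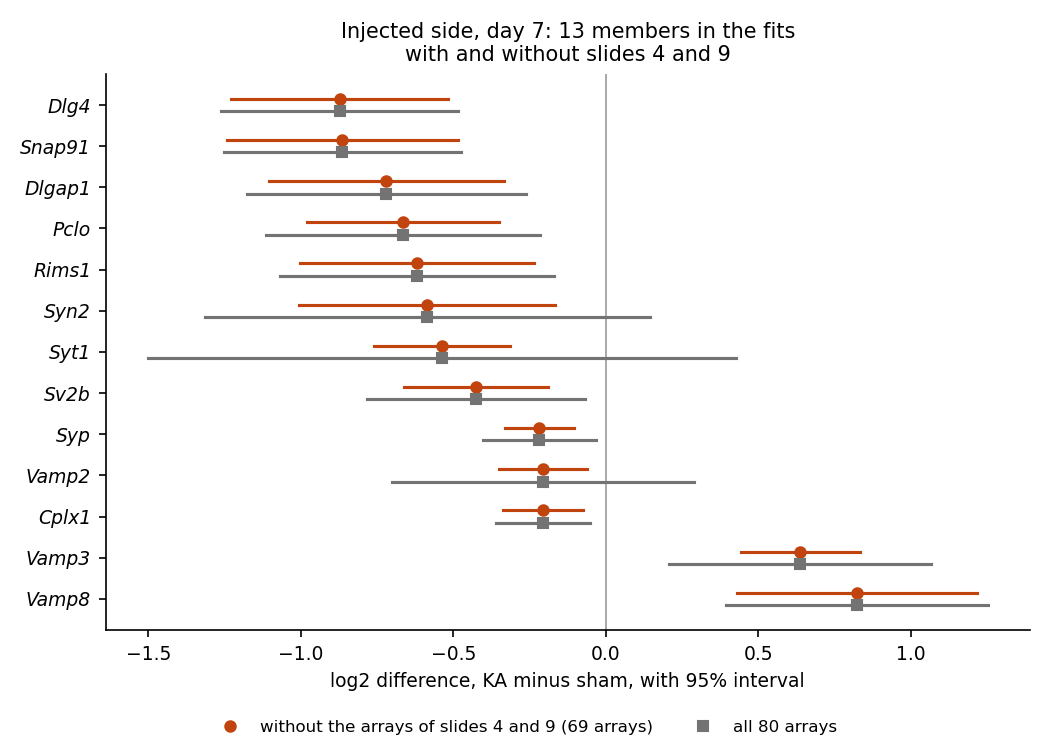
Log2 difference of KA minus sham on the injected side at day 7, with its 95% interval, for the 13 members called without the arrays of slides 4 and 9, from 69 arrays (circles) and from all 80 arrays (squares). The differences coincide, and the intervals of Syt1, Syn2 and Vamp2 cross 0 with all arrays but not without the 2 slides.

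By role, the members of the day 7 comparison on the injected side divided as follows. Of the 10 postsynaptic scaffolds, all had differences below 0 (median -0.23), and Dlg4 and Dlgap1 were called. The others differed by -0.33 for Shank3, -0.28 for Dlg2, -0.19 for Homer1 and -0.07 for Dlg1, and Dlg3 by only -0.0003. With no background correction 9 of the 10 lay below 0. All 4 active zone genes lay below 0 (median -0.50): Pclo was called, and Rims1 (-0.62), Rims2 (-0.39) and Rims3 (-0.38) were not.

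The 6 vesicle genes also lay below 0 (median -0.32), and of them Snap91 was called. Syn2, a synapsin, differed by -0.59 and Sv2b by -0.43, while Syn1 (-0.06) and Sv2a (-0.15), the protein that the antiseizure drug levetiracetam binds, had small differences. The 9 synaptotagmins lay below 0 in the fit to all arrays (median -0.20), with Syt1 at -0.54 and Syt4 at -0.18, and 8 did with the replicate number as a block. Syt11 differed by -0.10 on its brightest probe and by -0.72 and -0.45 on the other 2 (adjusted p = 0.0959 and 0.103, limma). The 3 release SNAREs were Stx1a (-0.43), Vamp1 (-0.34) and Vamp2 (-0.21), with no call. Of the 5 complexin and Munc13 genes 4 lay below 0, among them Cplx1 (-0.21) and Cplx2 (-0.28), and Unc13d (+0.17) did not.

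The 8 adhesion molecules lay below 0 (median -0.16), with no call. Nrxn2 differed by -0.41, Lrrtm1 by -0.31, Lrrtm3 by -0.26, Lrrtm2 by -0.16, Nlgn2 by -0.15, Nrxn3 by -0.07, Nlgn3 by -0.06 and Nlgn1 by -0.01. With array weights 6 of the 8 lay below 0, and 7 did with no background correction. The syntaxins and VAMPs outside the release SNAREs were mixed: 11 of 16 lay below 0 (median -0.08), and both higher calls, Vamp3 and Vamp8, were among them. Vamp5 differed by +0.23 and Stx3 by +0.16, while Stx2 differed by -0.37. Of the 3 syntaxin-binding genes 1 lay below 0, and of the 5 synaptotagmin-like genes 4 did, or 2 with no background correction.

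**Figure D3:**
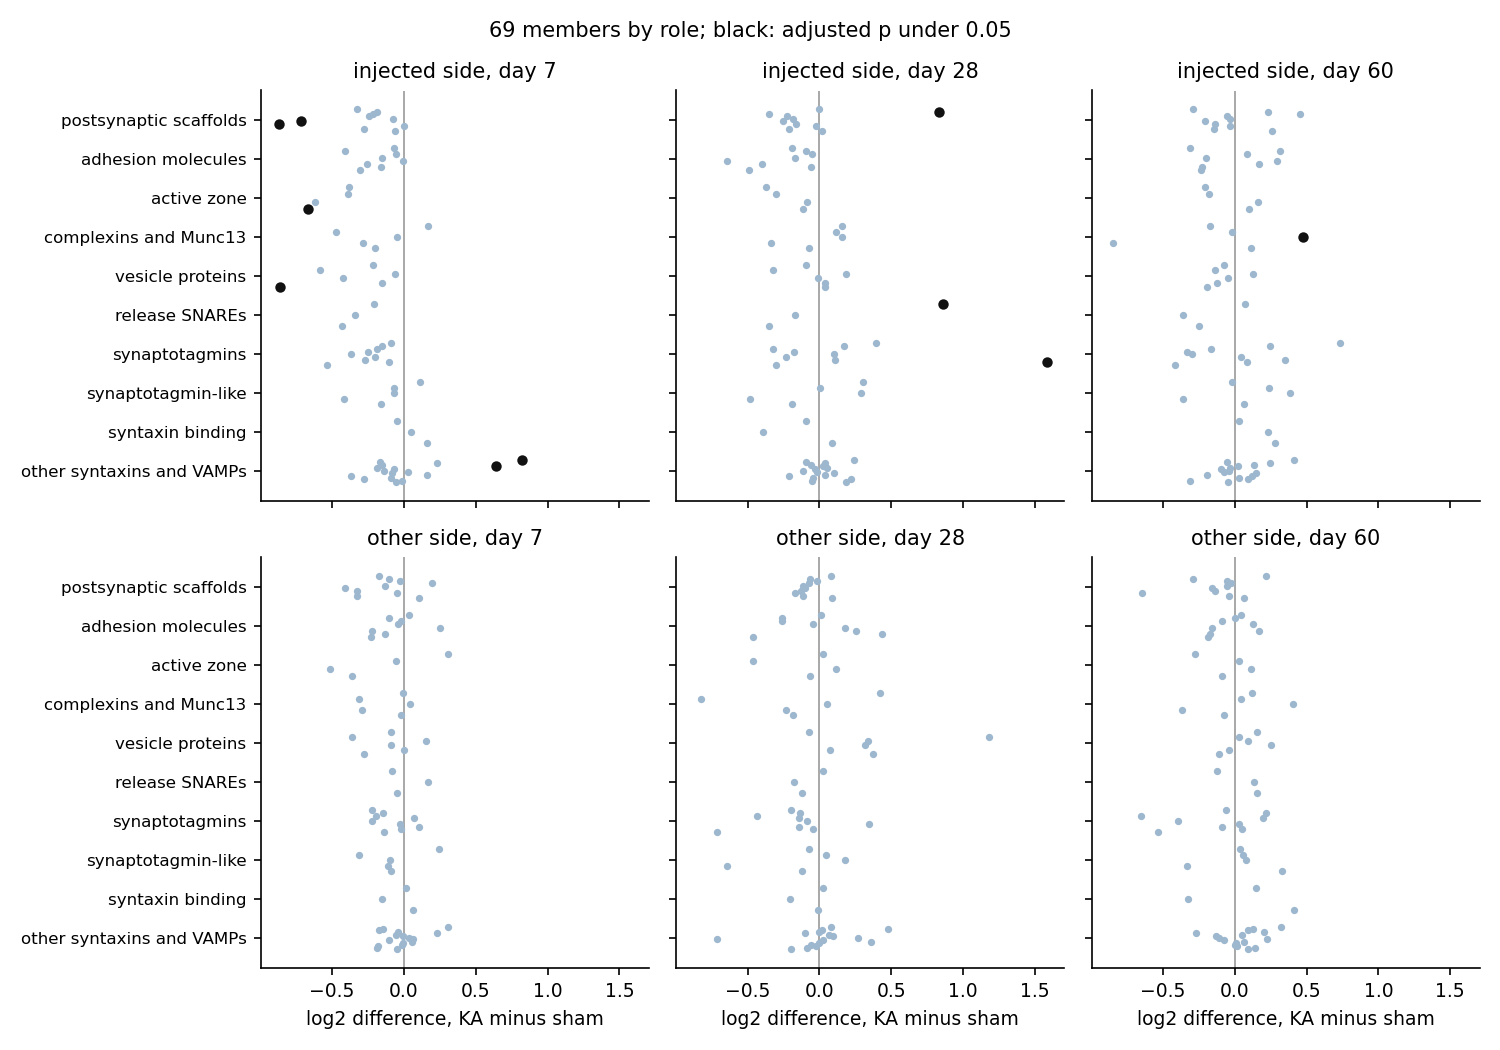
Log2 difference of KA minus sham for each of the 69 members, grouped by role, in the 6 comparisons of side and day, with called members in black. On the injected side at day 7 the scaffolds, active zone, vesicle, adhesion and synaptotagmin genes lay below 0 and Vamp3 and Vamp8 stood above. In the other 5 comparisons the members as a whole lay on both sides of 0. The adhesion and active zone genes all lay below 0 at day 28 on the injected side too. Homer1, Vamp2 and Syt11 were called at day 28 and Unc13b at day 60 on the injected side.

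Other synaptic genes were set beside the 69. Over all genes at day 7 on the injected side, 7.45% were called higher and 3.03% lower, and 57.5% lay below 0. Of 30 tested genes from a list of other presynaptic genes, 1 was higher and 5 were lower in IL KA mice at day 7, and 23 lay below 0 (median -0.29). The 3 of lowest p were Snap23, Dnm1 and Amph. Snap23, a relative of SNAP-25, differed by +0.58 ± 0.14 (SE; adjusted p = 0.00205, limma). Dnm1, the dynamin that severs vesicles, differed by -0.88 ± 0.23 (SE; adjusted p = 0.00447, limma). Amph, or amphiphysin, which recruits dynamin, differed by -0.58 ± 0.16 (SE; adjusted p = 0.00664, limma). Of 33 tested other postsynaptic genes, 3 were lower and none higher, and 25 lay below 0 (median -0.16). The lower genes were the adhesion molecules Slitrk1 (-0.59) and Cadm3 (-0.65) and the scaffold Mpp2 (-0.42), with adjusted p of 0.00695, 0.0386 and 0.0423 (limma). In the fit without slides 4 and 9 the counts were 2 higher and 12 lower of 30, and 5 lower of 33. Over all genes 10.4% were then called higher and 9.03% lower.

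Markers of cell types moved in the same comparison, and their part in the members' results was not tested. All 8 microglia markers were called higher (median +1.75), and their mean log2 value was 7.61 to 9.77 on IL KA arrays, against 7.09 to 7.53 on IL sham arrays. Of 9 astrocyte markers 5 were higher (median +0.75), with means of 9.33 to 10.65 on IL KA arrays, against 9.02 to 9.53 on IL sham arrays. None of the 7 oligodendrocyte or 5 endothelial markers was called in the fit to all arrays. Of the neuronal lists, 11 of 11 pan-neuronal markers lay below 0 (median -0.17) with no call, and their means were 10.21 to 10.79 on IL KA arrays, against 10.54 to 10.72 on IL sham arrays. Of the interneuron markers 6 of 7 lay below 0 (median -0.57) and 2 were called lower, of the CA1 markers 4 of 4 did (median -0.42) and 1 was called, and of the CA2 and CA3 markers 6 of 6 did (median -0.48) with no call. The dentate granule markers had 1 of 2 below 0 (median +0.17) and no call. Beside the members' median of -0.17, the medians of the interneuron, CA1 and CA2 and CA3 lists lay further below 0. The pan-neuronal median was alike, and that of the dentate granule markers lay above 0. Without slides 4 and 9, 7 of 9 astrocyte and 3 of 7 oligodendrocyte markers were called higher, and 2 of 11 pan-neuronal, 4 of 7 interneuron, 1 of 4 CA1 and 2 of 6 CA2 and CA3 markers lower, with the same medians. IL KA replicate 8, the array without a high microglia or astrocyte mean, had the highest pan-neuronal mean at 10.79. On it Dlg4 (7.32), Pclo (7.43) and Rims1 (6.33) had their highest KA values and Vamp8 (7.76) and Vamp3 (10.09) their lowest. Snap91 and Dlgap1, also called lower at day 7, did not have their highest KA values on that array.

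On the injected side at day 28, 3 members were called, all higher: Homer1, a scaffold that binds group I metabotropic glutamate receptors, Vamp2, the main vesicle SNARE, and Syt11, a synaptotagmin that does not bind calcium. Over all genes 5.87% were called, 4.43% higher. These calls rested on 1 sham array, IL sham replicate 5 on slide 9. Syt11 had 13.85, 13.97 and 14.14 as lowest, median and highest of 9 IL KA arrays, against 14.05, 13.99, 14.05, 13.66 and 6.16 in the 5 IL sham arrays. Vamp2 had 12.50, 12.81 and 12.95 in IL KA arrays, against 12.82, 12.79, 12.78, 11.90 and 9.16 in IL sham arrays. Homer1 had 10.18, 10.53 and 10.95 in IL KA arrays, against 10.33, 10.44, 10.25, 10.92 and 6.71 in IL sham arrays.

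With all arrays the differences were +1.58 ± 0.47 for Syt11, +0.86 ± 0.23 for Vamp2 and +0.84 ± 0.27 for Homer1 (SE; adjusted p = 0.0288, 0.0123 and 0.0448, limma). Without IL sham replicate 5 they were +0.02, +0.17 and +0.07, with adjusted p of 0.973, 0.544 and 0.919. The Homer1 call was also lost without any 1 of IL KA replicates 1 and 3 to 9, with adjusted p from 0.0501 to 0.0820 and differences from +0.79 to +0.85. With the mean of the kept probes Homer1 (+0.20, adjusted p = 0.301) and Syt11 (+0.52, adjusted p = 0.131, limma) were not called. Without slides 4 and 9 Syt11 (-0.05) and Vamp2 (-0.06) lay below 0, and no member was called, against 3.27% of all genes. The deposited intensity on that array was 41.0 for Syt11, 331.3 for Vamp2 and 62.8 for Homer1, against group medians of 16635.1, 7342.4 and 1254.0. The other probes of the same genes did not share the gap: the 2 other Syt11 probes lay 0.01 and 0.24 above their group medians there, and the 3 other Homer1 probes between -0.19 and 0.35 from theirs. Within slides 1 and 6, which held 1 array of each group, Syt11 differed by 0.00 and -0.09, Vamp2 by -0.11 and +0.03 and Homer1 by +0.52 and +0.29.

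**Figure D4:**
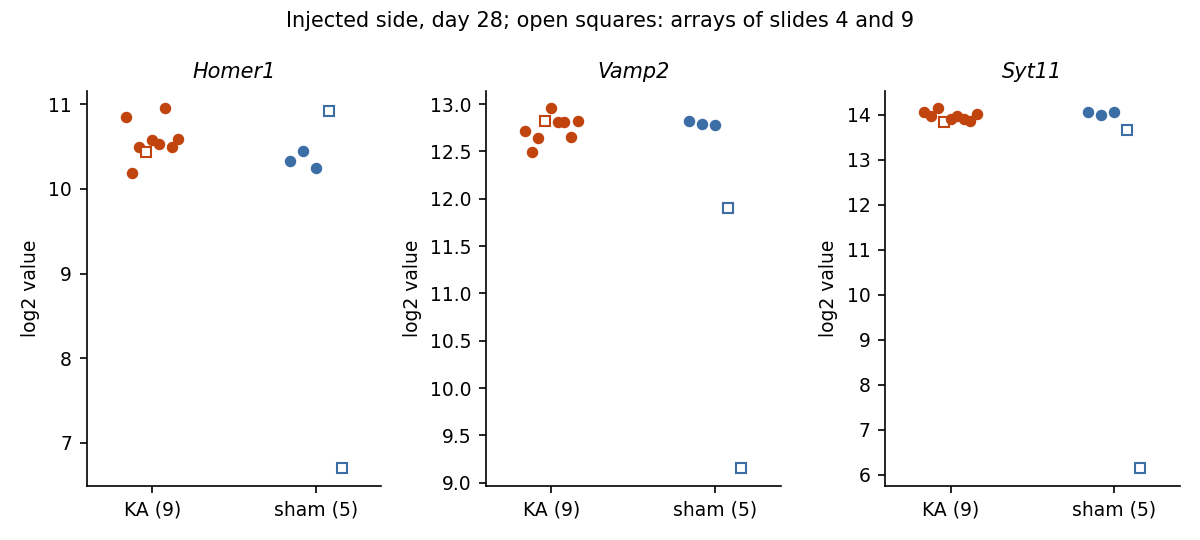
Log2 normalised intensity of Homer1, Syt11 and Vamp2 on the injected side at day 28, one point per array for 9 KA and 5 sham mice, with arrays of slides 4 and 9 as open squares. A single sham array at 6.71, 6.16 and 9.16 lies far below all others, and the other sham arrays lie among or near the KA arrays.

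Most members differed little at day 28, with 43 of 69 (62.3%) below 0, against 55.4% of all genes, and a median of -0.06, against -0.03 for all genes. The 8 adhesion molecules lay below 0 again, from -0.64 to -0.05. The lowest was Nlgn1, a neuroligin of excitatory synapses, at -0.64 ± 0.21 (SE; adjusted p = 0.0576, limma), which was detected on only 2 of 9 IL KA arrays and 3 of 5 IL sham arrays. Dlg4 (-0.16) and Snap91 (+0.04), called at day 7, were not called here, nor were Vamp3 (+0.02) and Vamp8 (+0.24). Of the other presynaptic genes Slc17a7, the vesicular glutamate transporter VGLUT1, was higher (+1.21, adjusted p = 0.0284) and Doc2b, a calcium sensor, lower (-0.77, adjusted p = 0.0415), and of the postsynaptic genes Cnksr2 was lower (-0.93, adjusted p = 0.0471, limma for each). These were, without slides 4 and 9, +0.11, -0.59 and -0.52, with adjusted p of 0.794, 0.363 and 0.566.

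At day 60 on the injected side 1 member was called, Unc13b, the priming factor Munc13-2, and it was higher, while 4.67% of all genes were called, 3.37% higher. Its values were 10.36, 10.55 and 11.01 as lowest, median and highest of 9 IL KA arrays, against 10.23, 10.73, 10.35, 10.06 and 9.30 in 5 IL sham arrays. The groups overlapped, with 2 KA arrays above every sham array, and the difference was +0.48 ± 0.15 (SE; adjusted p = 0.0464, limma). Within slides 1, 5, 7 and 9 it was +0.77, -0.21, +0.25 and +1.55. Leaving out replicate 1, 5, 6, 7 or 9 of the KA group, or replicate 1, 4 or 5 of the sham group, ended the call, with adjusted p from 0.0585 to 0.501. Without IL sham replicate 5, the array at 9.30, the difference was +0.27.

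Without slides 4 and 9 Unc13b was not called at day 60 (+0.24, adjusted p = 0.325, limma). In its place Stxbp2, or Munc18-2, a partner of syntaxins best known from secretion by blood cells, was higher (+0.39 ± 0.11 SE, adjusted p = 0.0343, limma), with 3.93% of all genes called, 2.7% higher. Of the 69 differences 37 (53.6%) lay below 0 with all arrays (median -0.03), against 52.2% of all genes. Without the 2 slides 32 did, against 53.6% of all genes. Cplx2, a complexin, had the lowest difference at -0.85, and Syt9 the highest at +0.73 ± 0.24 (SE; adjusted p = 0.0661, limma). For Nrxn3, a neurexin, every IL KA array lay below every IL sham array, as for 0.448% of all genes, at a difference of -0.31 ± 0.15 (SE; adjusted p = 0.289, limma). Among other synaptic genes Doc2b (-0.87, adjusted p = 0.0197) and Nrgn (-0.52, adjusted p = 0.0196, limma for both), the calmodulin-binding protein neurogranin of dendrites, were lower, and remained so without slides 4 and 9 (-0.93 and -0.45, adjusted p = 0.036 and 0.0311). In that fit Cadps2 (-0.56, adjusted p = 0.00928), a vesicle priming protein, and Camk2b (-0.29, adjusted p = 0.0445, limma for both), a calmodulin-dependent kinase subunit, were lower as well.

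The members' change at day 60 was set against that at day 7, groups that share no array. With all arrays no member's KA effect on the injected side differed between the days after adjustment, while 1.65% of all genes were called. At an unadjusted p under 0.05 were 14 of the 69 members, and 1244 of the 11381 genes. Dlg4 differed by +0.74 ± 0.26, Snap91 by +0.67 ± 0.26 and Pclo by +0.77 ± 0.30 (SE; adjusted p = 0.171, 0.247 and 0.25, limma). With those slides left out, 3 members were called, against 3.09% of all genes, 1.05% higher and 2.05% lower. The KA effect at day 60 minus that at day 7 was -0.65 for Vamp3 (adjusted p = 0.00417), +0.35 for Cplx1 (adjusted p = 0.0198) and +0.57 for Sv2b (adjusted p = 0.0418, limma for each).

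On the side that was not injected, no member was called at day 7, 28 or 60 in the fit to all arrays. At an unadjusted p under 0.05 were 1, 9 and 3 of the 69 members, and 970, 1337 and 848 of the 11381 genes. Over all genes the shares called were 1.54%, 0.0879% and 0.0615%. At day 7, 50 of 69 differences (72.5%) lay below 0, against 54.1% of all genes, with a median of -0.06 against -0.02. Dlg4 differed there by -0.32, Snap91 by -0.28, Dlgap1 by -0.41, Pclo by -0.36 and Rims1 by -0.51, and Vamp3 by +0.23 and Vamp8 by +0.31. Dlg4 values on the CL side were 6.80, 7.53 and 7.75 as lowest, median and highest in KA mice, against 8.23, 7.47, 7.84 and 7.41 in sham mice, so the groups overlapped. On that side 5 of 8 microglia markers and 2 of 9 astrocyte markers were called at day 7, and none of the other presynaptic or postsynaptic genes was. Without slides 4 and 9, 3 astrocyte markers were called there, and 1 postsynaptic gene, Slitrk3, was lower (-0.60, adjusted p = 0.0284, limma). At day 28 and 60, 41 and 30 of the members (59.4% and 43.5%) lay below 0, against 53.6% and 46% of all genes. The CL effect of KA at day 60 was not called different from that at day 7 for any member, with 0.00879% of all genes called. An unadjusted p under 0.05 was seen there for 3 members, and for 735 of the 11381 genes.

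The largest CL difference was that of Syn2 at day 28, +1.18 ± 0.33 (SE; adjusted p = 0.0816, limma). It had 11.48, 12.08 and 12.50 as lowest, median and highest in CL KA mice, against 12.10, 12.18, 7.16, 10.997 and 12.02 in CL sham mice, and the sham value of 7.16 came from slide 4. Without slides 4 and 9 no member was called on the CL side, with 2.47%, 0.764% and 0.0176% of all genes called at the 3 days.

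**Figure D5:**
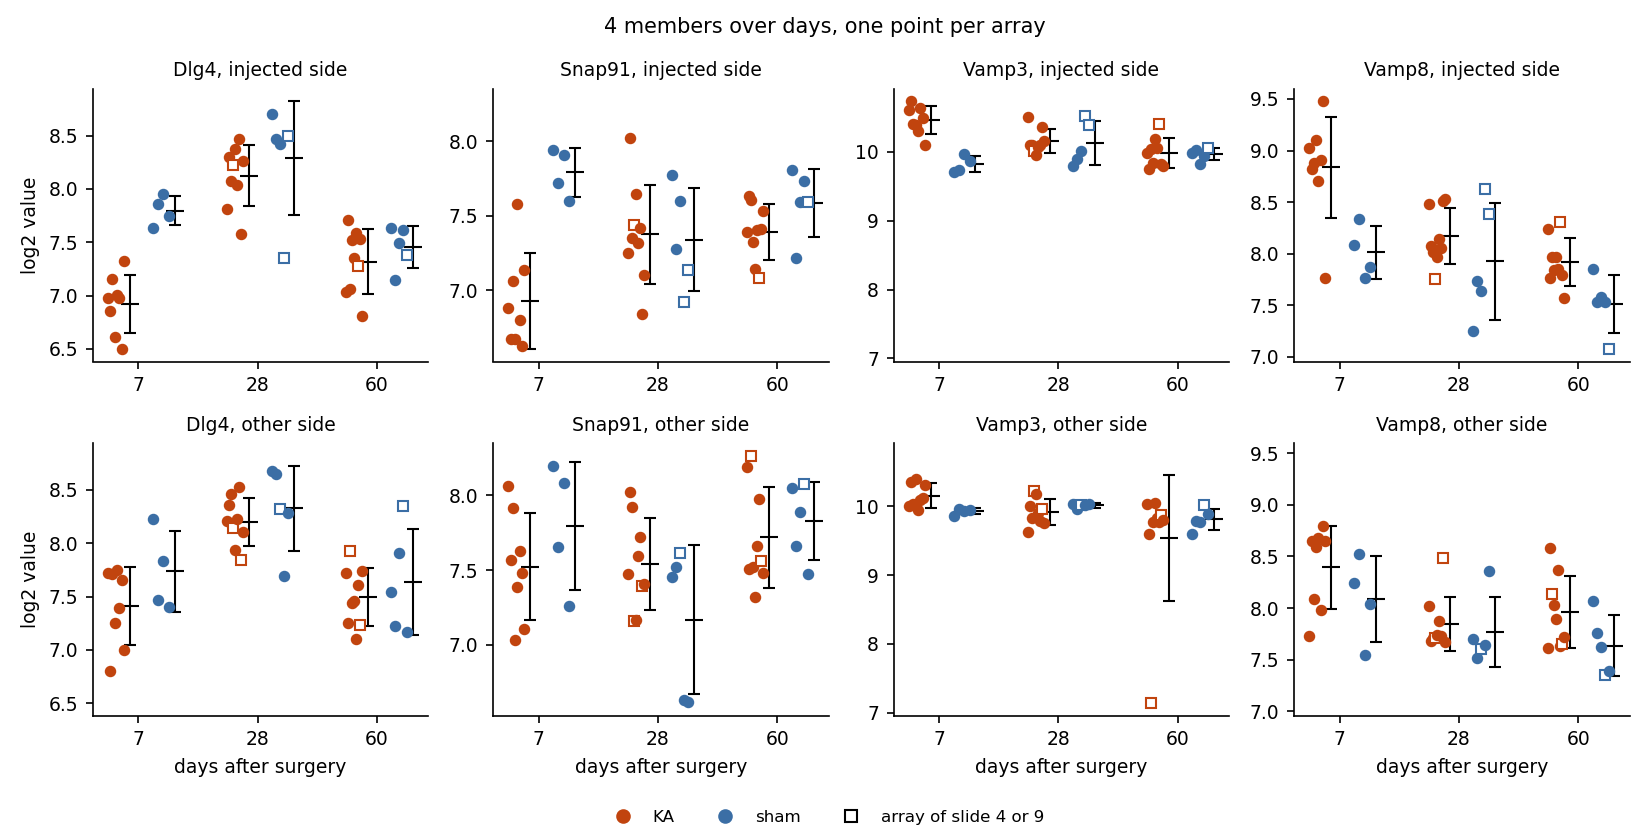
Log2 normalised intensity of 4 members at days 7, 28 and 60, with KA left of sham at each day, on the injected and the other side, one point per array. The groups are apart on the injected side at day 7, except for 1 KA array of Vamp8, and overlap at the later days and on the other side.

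A test of the difference itself asked whether the KA effect was unequal on the 2 sides. No member passed it at day 7, 28 or 60 in the fit to all arrays, while 0.0264%, 1.02% and 0.65% of all genes were called. At an unadjusted p under 0.05 were 3, 11 and 8 of the 69 members, and 511, 1817 and 1273 of the 11381 genes. For Snap91 at day 7 the effect on the injected side minus that on the other was -0.59 ± 0.26, and for Dlg4 it was -0.55 ± 0.27 (SE; 95% intervals -1.12 to -0.06 and -1.08 to -0.02; adjusted p = 0.9999 for both, limma). The calls on the injected side at day 7 are therefore not shown to be confined to it.

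Within KA mice the injected hippocampus was also compared with the other one of the same animals, a comparison that shares the IL KA arrays with the one against sham. At day 7, 3 members were lower on the injected side, against 4.41% of all genes called, 1.04% lower. Vamp1, a synaptobrevin, had 7.97, 8.31 and 8.89 as lowest, median and highest on IL KA arrays, against 8.63, 8.86 and 9.33 on CL KA arrays, a difference of -0.54 ± 0.13 (SE; adjusted p = 0.00324, limma). Snap91 differed by -0.59 ± 0.15 (SE; adjusted p = 0.00988) and Dlg4 by -0.49 ± 0.15 (SE; adjusted p = 0.0487, limma for both). The Vamp1 call was lost with slide as a block (-0.39, adjusted p = 0.0844) and with median scaling (-0.54, adjusted p = 0.0587), and the Snap91 call with the mean of its kept probes (-0.33, adjusted p = 0.241, limma). Dlg4 was called in 8 of 14 alternative settings. The Dlg4 call was lost in 13 of 16 fits that left out 1 array of these groups, with differences from -0.57 to -0.43 over all 16.

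With slides 4 and 9 left out, 8 members were called between the sides at day 7, against 12.6% of all genes, 6.38% higher and 6.18% lower. Vamp3 (+0.31) and Vamp8 (+0.44) were higher on the injected side, and Vamp1, Snap91, Dlg4, Pclo (-0.47), Vamp4 (-0.18) and Syp (-0.13) were lower, with adjusted p from 0.00124 to 0.0449 (limma). At day 28 no member was called with all arrays, where 4.18% of all genes were called. An unadjusted p under 0.05 was seen there for 6 of the 69 members, and for 1627 of the 11381 genes. Without the 2 slides Vamp3 (+0.30) and Syt9 (+0.72) were higher on the injected side (4.37% of all genes, and 5.25% called either way).

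At day 60 Nrxn3 was lower on the injected side of KA mice by -0.44 ± 0.13 (SE; adjusted p = 0.0248, limma), against 3.99% of all genes called, 1.37% lower. Its values were 8.93, 9.15 and 9.27 as lowest, median and highest on IL KA arrays, against 9.01, 9.54 and 10.27 on CL KA arrays, so the ranges overlapped. The call was lost without CL KA replicate 1, 3 or 8 or IL KA replicate 6, with adjusted p from 0.0512 to 0.105, and without slides 4 and 9 (-0.32, adjusted p = 0.187). It was lost too with the mean of its 2 kept probes (-0.22, adjusted p = 0.301) and with median scaling (-0.36, adjusted p = 0.261, limma). In that fit without the 2 slides Homer1 (+0.47) and Vamp5 (+0.41) were higher on the injected side (2.17% of all genes, and 3.12% called either way). Between the sides of sham mice, with the days pooled, no member was called and 2 had an unadjusted p under 0.05; no gene of all was called by limma, and 574 had an unadjusted p under 0.05.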

How the data were processed

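Per the labels, RNA of 80 hippocampi was hybridised to Illumina BeadChips. The deposited table gives for each probe an intensity, background-subtracted and not scaled between arrays, and a detection p-value against negative controls. The deposited series matrix gives log2 values of the same arrays with equal distributions. BeadStudio, GenomeStudio and Partek were used, per the submitters' processing notes, with versions not given in the sources used here. Of 25697 data lines, 21244 were used. The other 4453 have columns shifted against the header and were left out. The detection p-values of 1 array, CL sham replicate 4 of day 60, sat a line off and were moved back, which took their rank correlation with intensity to -0.988, against -0.208 before. The series text lists the day 60 sham arrays as KA; the single labels, used here, say sham.

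Intensities were corrected and quantile normalised with neqc (limma 3.58.1, statmod 1.5.0, R 4.3.3; offset 16). A probe was kept at a detection p under 0.05 on at least 4 arrays, which kept 16646 probes and removed 4598. The brightest probe in the series matrix stood for each of 11381 genes, and 22 members have more than 1 kept probe. Limma was fitted with 12 group means and the animal as a random block (consensus correlation 0.0786) for 15 contrasts, two-sided, with Benjamini-Hochberg adjustment per contrast over all genes at 0.05. The fit was tested on simulated data. The number of arrays limits the precision. Summaries and plots were made with pandas 2.3.3, numpy 2.4.6 and matplotlib 3.10.9 under Python 3.11.15.

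The members, gene lists and tests were chosen with earlier results of these data known. Named members are up to 12 called ones per direction and KA comparison, up to 6 in other comparisons, and a list of well-known synaptic genes whatever their result; up to 3 called genes per other list are named. Alternatives were background correction, scaling, the series matrix values, detection filters, the choice among probes, blocks for animal, replicate number and slide, array weights, and leaving out slide 9 or single arrays. Leaving out slides 4 and 9, with and without slide as a block, was added after seeing the data. Replicate numbers name arrays only: 6 of 40 animals carry 1 number on both arrays. Promoter windows came from RefSeq (GRCm38.p6), matched by symbol.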

Additional observations from a re-analysis of the deposited data

Results flagged for a closer look

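Gaps to the nearest array were compared with Dixon's critical value in 32 groups of arrays, and 8 passed. Chance passes this value in about 1 in 20 groups that are unselected and independent. The groups here were those of members already called, or marker means of the IL groups of day 7, and several share arrays. That rate therefore does not apply to them. In the IL sham group of day 28, the array of replicate 5 lay apart for Homer1 (6.71), Syt11 (6.16) and Vamp2 (9.16). In the IL KA group of day 7, replicate 8 lay apart for Vamp8 (7.76), for the mean log2 value of the microglia markers (7.61) and of the astrocyte markers (9.33), both the lowest of 8, and for that of the pan-neuronal markers (10.79), the highest of 8. In the IL sham group of day 7, replicate 2 had the lowest Dlgap1 value (5.69), which still lay above every IL KA array.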

How the results depend on the processing

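The members called at IL day 7 numbered 4 to 7 under the alternatives that kept all arrays at equal weight, 10 without slide 9, 13 without slides 4 and 9, 17 with slide as a block in addition, and 21 with array weights, as all genes called went to 1652, 2215, 2973 and 3152 against 1193. Dlg4, Dlgap1, Snap91 and Vamp8 were called in 14 of 14 settings, Pclo in 10 and Vamp3 in 9. At IL day 28 the count was 1 with the mean of the kept probes, 0 with slide as a block, without slide 9 or without slides 4 and 9, and 1 without these slides and with the block. All genes called there were 644 with the mean of the kept probes and 372 without slides 4 and 9, against 668. There Syt11 and Vamp2 turned to -0.0705 and -0.0466 without slide 9, -0.0537 and -0.0564 without slides 4 and 9, and -0.0055 and -0.0388 with the block in addition. At IL day 60 the members' count was 2 with no background correction or with slide as a block, 3 with array weights, and 0 with median scaling, no detection filter, the replicate block or without slide 9. All genes called there were 532 with no background correction, as in the results above, 258 with median scaling and 525 with no detection filter. At CL day 28 the members' count was 2 with array weights and 1 without slides 4 and 9 with slide as a block, and the same 2 settings gave 1 for the side difference at day 28. IL against CL within KA gave at day 7 1 with median scaling or slide as a block, 5 without slide 9, 8 with array weights or without slides 4 and 9, and 9 with the block in addition. At day 28 it gave 1 with median scaling or the mean of probes, 3 without slide 9, 4 with array weights and 2 in both fits without slides 4 and 9. At day 60 it gave 0 with median scaling, 1 member with the mean of kept probes that was higher and not Nrxn3, and 2 without slide 9, with array weights and in both fits without slides 4 and 9. All genes called between the sides at days 7, 28 and 60 were 502, 476 and 454. With median scaling they were 367, 424 and 257, and without slides 4 and 9 they were 1429, 598 and 355. The IL effect of day 60 against day 7 gave 1 with slide as a block or without slide 9, 8 with array weights, 3 without slides 4 and 9 and 5 with the block. Without slides 4 and 9, 352 of all genes were called there, against 188. Where no count of all genes is given, the members' counts do not show whether all genes moved alike. The cause of these changes was not tested.

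Single arrays left out gave 3 to 8 at IL day 7, 0 to 4 at IL day 28, 0 to 3 at IL day 60, 0 to 1 at CL day 28 and for the side difference of day 28, and 2 to 5, 0 to 1 and 0 to 1 between the sides of KA mice at days 7, 28 and 60. These ranges count members only and do not show whether all genes moved with them. The replicate block gave 5 at IL day 7 (Vamp3 and Pclo lost, adjusted p = 0.0851 and 0.103, and Cplx1 gained, 0.0274), Homer1 lost at IL day 28 (adjusted p = 0.0503, limma) and Unc13b at IL day 60 (0.0583); numbers of this kind do not pair the arrays, with correlations of same-numbered deviations from -0.476 to 0.345. Of the single-gene values, 5342 kept their call or moved by less than their SE, 180 moved further, 103 lost a call, 49 gained one and 6 turned.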
